A study of Homo sapiens with 12 samples.

Results

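BRD2 and BRD3 are BET bromodomain genes, and HEXIM1 encodes an inhibitor of the elongation kinase P-TEFb. The 3 genes were looked up by symbol in the authors' comparisons of MDA-MB-231 cells treated with SAHA, compound 1 or a6 against DMSO (Ctrl), and all 3 were found in each comparison, among 27146 genes listed in at least 1 of them. No change of BRD2, BRD3 or HEXIM1 passed the test with any of the 3 compounds. The lowest values were those of the BET genes with SAHA, where BRD2 stood at 0.738 and BRD3 at 0.762 of its Ctrl level, with intervals that reached 1. HEXIM1 stayed between 0.937 and 1.07 of Ctrl in all 3 comparisons, with intervals from 0.640 to 1.45. Around these genes, the 7SK capping enzyme gene MEPCE fell with SAHA, a call that was lost once a trend on GC content was removed. The bromodomain gene SP140 rose with SAHA and with a6, and its a6 call was lost at an adjusted p under 0.01.

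BET proteins bind acetylated lysines on histone tails through a pair of bromodomains and recruit factors that release paused RNA polymerase II. P-TEFb, made of the kinase CDK9 and a T-type cyclin, carries out that release. HEXIM1, named for its induction by hexamethylene bisacetamide, holds P-TEFb inactive in a particle built on the 7SK RNA, together with the capping enzyme MEPCE and the RNA-binding protein LARP7. HDAC inhibitors raise the acetylation that bromodomains read, and HEXIM1 RNA commonly rises when BET proteins are inhibited with drugs.

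MDA-MB-231 is an established human triple-negative breast cancer line. Cells received 2.5 µM SAHA (vorinostat, an HDAC inhibitor), 2.5 µM compound 1, 2.5 µM a6 or the solvent DMSO (Ctrl) for 48 h, with 3 libraries of total RNA in each of the 4 groups, 12 in all. By the labels a6 is a dual-target compound, directed at HDACs and at G-quadruplexes (G4s, folds of guanine-rich nucleic acid), whereas SAHA and compound 1 have 1 target each. The libraries are called biological replicates with no word on separate cultures, so each p rests on a spread between libraries that may be partly technical. The authors' deposited tables give a mean over the 6 libraries of a comparison and no value per library, so neither the depth of a library nor the spread of a level can be given, and fewer cells cannot be told apart from less RNA per cell. Of 7 genes that mark this line, such as VIM and CD44, all 7 were listed in each comparison. ESR1, the oestrogen receptor gene that the subtype lacks, had a mean normalized count of 0.489 in the compound 1 table and was not listed in the others. KRT8, KRT18 and ERBB2, which were listed with the genes taken to be low in this line, had mean normalized counts of 20220, 9708 and 1715 in the SAHA comparison by the authors' deposited table, so those 3 went against that list.

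The study's dual compound is directed at G4s, so the stretches before the start sites of the 3 genes are shown with the guanine runs that could form them. RefSeq windows on GRCh38.p14 gave 4 start sites for BRD2, 1 for BRD3 and 1 for HEXIM1. In the 250 bases before each start, both strands were searched for 4 runs of at least 3 G (GGG) with 1 to 7 bases of any kind (N) between runs, and separately for TATAAA. No window of the 3 genes held both motifs. Capitals mark the G-run pattern in BRD2 and BRD3 and the TATAAA in HEXIM1.
BRD2, chr6:32970798-32970899, plus strand: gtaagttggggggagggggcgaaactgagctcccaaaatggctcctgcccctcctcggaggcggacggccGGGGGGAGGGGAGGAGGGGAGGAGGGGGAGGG
BRD3, chr9:134068027-134068276, minus strand: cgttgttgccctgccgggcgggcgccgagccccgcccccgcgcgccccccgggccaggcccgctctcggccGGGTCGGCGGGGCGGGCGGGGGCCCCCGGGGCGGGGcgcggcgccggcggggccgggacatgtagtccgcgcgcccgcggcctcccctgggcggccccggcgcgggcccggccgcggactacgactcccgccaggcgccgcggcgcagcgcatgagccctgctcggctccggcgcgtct
HEXIM1, chr17:45148225-45148474, plus strand: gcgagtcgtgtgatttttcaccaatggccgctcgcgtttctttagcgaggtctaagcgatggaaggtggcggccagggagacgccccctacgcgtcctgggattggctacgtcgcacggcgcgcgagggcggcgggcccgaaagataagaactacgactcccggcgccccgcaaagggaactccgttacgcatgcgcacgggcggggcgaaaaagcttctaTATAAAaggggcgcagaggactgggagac

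The G-run pattern was found in 1 of the 4 BRD2 windows, 62 to 31 bases before the start at 32970930, and in the BRD3 window, 179 to 144 bases before the start at 134068026. Both windows lie inside the genes as annotated in GENCODE 29, downstream of their outermost starts. The BRD2 stretch shown is 102 bases of its window, 12 of them in annotated exons. The pattern was not found in the HEXIM1 window. Of all 35116 windows of this length, 23.5% held it. The HEXIM1 window instead held TATAAA, 29 to 24 bases before the start, which 10.7% of all windows held on either strand. The BRD3 window had a GC content of 86.8%, against a median of 58% over all windows, and the HEXIM1 window and the BRD2 window with the pattern had 62.4% each. A match of letters is a description and shows no folded structure. None of the 3 genes was named in the 12 lists of changed or G4-related genes that the authors deposited. Those of changed genes have the sizes that an unadjusted p under 0.05 with a 2-fold change gives, such as 1327 and 609 with SAHA. None of the 3 genes met that rule with any compound, so their absence there was fixed in advance.

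BRD2 lies on chromosome 6, 32968660 to 32981505, on the plus strand of GRCh38 (GENCODE 29). BRD3 lies on chromosome 9, 134030305 to 134068535, on the minus strand, and HEXIM1 on chromosome 17, 45148502 to 45152101, on the plus strand as a single exon. Both BRD3 and HEXIM1 share exon sequence with a gene on the opposite strand, and the sources used here do not say whether counting used strand. BRD3OS overlaps 1281 of the 6876 exon bases of BRD3, and the antisense gene AC138150.1 overlaps 520 of the 3600 exon bases of HEXIM1. Without strand, reads from such stretches cannot be assigned to either gene. In the authors' deposited tables the log2 fold changes of BRD3OS were -0.17 with SAHA, -0.02 with compound 1 and 0.09 with a6, and those of AC138150.1 were -0.03, -0.08 and -0.14 in the same order.

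All 3 genes were well expressed, and their order was the same in every comparison. Computed from the authors' deposited tables, Ctrl levels per kilobase of exon were 590 to 603 normalized counts for BRD2, 408 to 417 for HEXIM1 and 131 to 133 for BRD3, where the ranges run over the 3 tables. On the same scale and in the same Ctrl group, CDK9, the kinase of P-TEFb, stood at 617 to 631, MEPCE at 208 to 212, HEXIM2, the paralogue of HEXIM1, at 54.2 to 55.5, LARP7 at 31.6 to 32.4, and the cyclin genes CCNT1 and CCNT2 at 25.5 to 26.1 and 13.0 to 13.3. By count per length HEXIM1 stood far above HEXIM2 in Ctrl. These ranges come from the same Ctrl libraries scaled in 3 ways and are not a spread between libraries, so whether neighbours in the order differ beyond their spread was not tested. By mean normalized count, BRD2 exceeded 97.1% of genes in the SAHA comparison, HEXIM1 89.4% and BRD3 80.9%.

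With SAHA the question was what an HDAC inhibitor alone did to the BET and HEXIM1 transcripts. BRD2 averaged 3265 normalized counts with SAHA and 4426 in Ctrl, as computed from the authors' deposited table. The authors' deposited table puts the log2 fold change at -0.44 (standard error, SE, 0.24) with an unadjusted p = 0.0623 and an adjusted p = 0.308 by the DESeq2 Wald test. The 95% interval of this change ran from -0.90 to 0.02. BRD3 averaged 699 with SAHA and 918 in Ctrl on the same scale. Its log2 fold change by the authors' deposited table was -0.39 (SE 0.25, DESeq2 adjusted p = 0.437), and the interval was -0.88 to 0.10. HEXIM1 averaged 1405 with SAHA and 1501 in Ctrl, which the authors' deposited table gives as -0.09 on the log2 scale (SE 0.28, DESeq2 adjusted p = 0.927). Its interval, -0.64 to 0.46, reaches up to 1.37-fold above Ctrl. The 3 mean levels were all lower with SAHA than in Ctrl, and none of the 3 differences exceeded what the test could call.

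With SAHA, 0 of the 3 genes passed the authors' DESeq2 test at an adjusted p under 0.05, as 7.55% of all 18534 genes did. Without adjustment 0 of the 3 were under 0.05, as 18.4% of all genes were. Among all genes tested with SAHA, 20.3% had a smaller p than BRD2, 26.5% a smaller p than BRD3 and 79.4% a smaller p than HEXIM1. With the standard errors in this table, a call needed a change of at least 1.60-fold for BRD2, 1.65-fold for BRD3 and 1.76-fold for HEXIM1. Smaller estimates could therefore not be called. These limits apply to the estimate, so a true change of that size could still be missed.

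**Figure D1:**
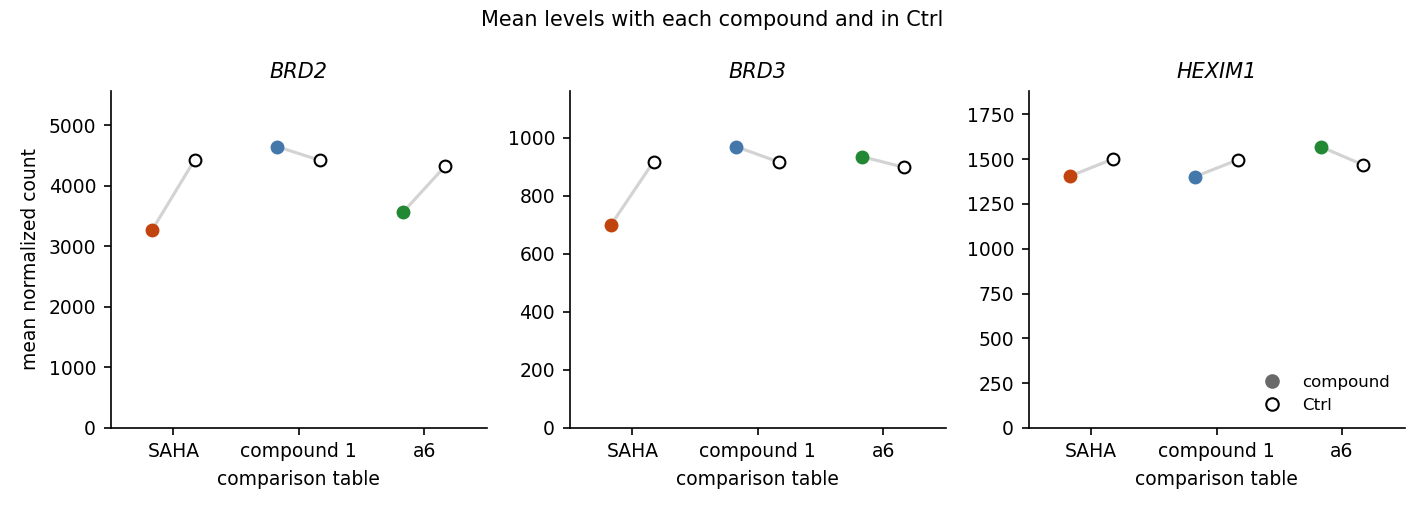
Mean normalized counts of BRD2, BRD3 and HEXIM1 (vertical axis, from 0) with each compound (filled, left of each pair) and in Ctrl (open, right), in the 3 comparison tables; no error can be drawn, because no value per library was used. BRD2 stands at 3265 with SAHA and 4426 in Ctrl, while HEXIM1 lies between 1403 and 1570 in all 6 means.

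With compound 1, the other single-target compound, BRD2 averaged 4642 normalized counts, against 4417 in Ctrl. BRD3 averaged 969 with compound 1 and 916 in Ctrl, and HEXIM1 averaged 1403 with compound 1 and 1497 in Ctrl. The BET genes thus lay slightly above Ctrl and HEXIM1 slightly below it. In log2 fold change, the authors' deposited table has 0.07 for BRD2 (SE 0.23), 0.08 for BRD3 (SE 0.21) and -0.09 for HEXIM1 (SE 0.23), each with an adjusted p = 1.00 by the DESeq2 Wald test. The intervals were -0.37 to 0.51 for BRD2, -0.32 to 0.49 for BRD3 and -0.55 to 0.36 for HEXIM1. The authors' DESeq2 test called 0.0% of 27126 genes and 0 of the 3 with compound 1. Without adjustment, 0.199% of all genes and 0 of the 3 were under 0.05. With no effect at all, a share of 0.05 would be under that limit. The p-values with compound 1 thus run high, and 0 of the 3 says little. As a sign of RNA quality, 13 mitochondrially encoded genes were looked up, and all 13 were below 0 with compound 1, with a median log2 fold change of -0.23 in the authors' deposited table. With SAHA 3 of the 13 were below 0 (median 0.06), and with a6 8 were (median -0.01). All 13 were above 0 for SAHA minus compound 1 and for a6 minus compound 1. Their part in the values of the 3 genes, or in the differences between compounds, was not tested.

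With a6, the dual-target compound, BRD2 averaged 3557 normalized counts, against 4327 in Ctrl. By the authors' deposited table this was -0.28 on the log2 scale (SE 0.20, DESeq2 adjusted p = 0.869). BRD3 averaged 935 with a6 and 897 in Ctrl, and the authors' deposited table has a log2 fold change of 0.06 (SE 0.21, DESeq2 adjusted p = 0.994). HEXIM1 averaged 1570 with a6 and 1468 in Ctrl, a log2 fold change of 0.10 by the authors' deposited table (SE 0.22, DESeq2 adjusted p = 0.993). The 95% intervals were -0.67 to 0.10 for BRD2, -0.36 to 0.48 for BRD3 and -0.34 to 0.53 for HEXIM1. BRD2 alone had a mean below Ctrl with a6. Again 0 of the 3 genes passed the authors' DESeq2 test, as 0.583% of 15255 genes did with a6. Without adjustment 0 of the 3 and 7.41% of all genes were under 0.05. A call with a6 needed at least 1.64-fold for BRD2, 1.71-fold for BRD3 and 1.75-fold for HEXIM1.

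**Figure D2:**
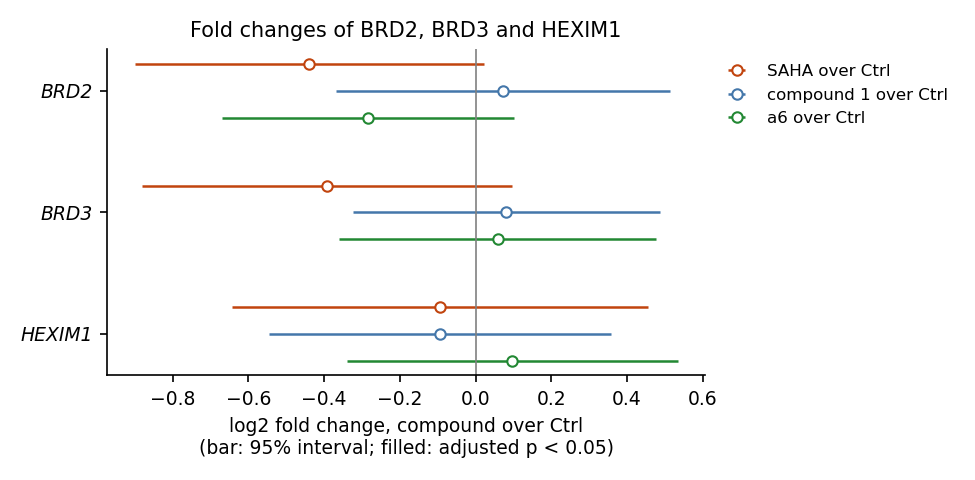
Log2 fold changes of BRD2, BRD3 and HEXIM1 with SAHA, compound 1 and a6 over Ctrl (points) with 95% intervals (bars); a filled point would mark an adjusted p under 0.05. All 9 points are open and all 9 intervals include 0, and the lowest values are BRD2 and BRD3 with SAHA at -0.44 and -0.39.

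The compounds were given at the same dose and for the same time, so their fold changes could be set against each other, over 3 pairs of compounds. The 3 comparisons share the Ctrl libraries. For BRD2 the difference of log2 fold changes was 0.16 (95% interval -0.45 to 0.76) for a6 minus SAHA and -0.35 (-0.94 to 0.23) for a6 minus compound 1. For SAHA minus compound 1, BRD2 differed by -0.51 (-1.15 to 0.13, adjusted p = 0.875). BRD3 differed by 0.45 (-0.19 to 1.09) for a6 minus SAHA, by -0.02 (-0.60 to 0.56) for a6 minus compound 1 and by -0.47 (-1.11 to 0.16, adjusted p = 0.933) for SAHA minus compound 1. HEXIM1 differed by 0.19 (-0.51 to 0.89) for a6 minus SAHA, by 0.19 (-0.44 to 0.82) for a6 minus compound 1 and by -0.0010 (-0.71 to 0.71) for SAHA minus compound 1. In a two-sided z test adjusted over all genes, 0 of the 3 genes passed for any pair, where the test called 0.256% of 15255 genes for a6 minus SAHA, 0.0328% of 15251 for a6 minus compound 1 and 1.06% of 18514 for SAHA minus compound 1. Without adjustment, and with errors taken as independent, 0 of the 3 were under 0.05 for any pair. Over all genes 5.56%, 1.46% and 7.26% were, in the same order. The 1.46% for a6 minus compound 1 is less than a share of 0.05, so 0 of the 3 says little there. The z test and the intervals take the errors of a pair as independent although they share Ctrl libraries, which makes both conservative. With errors correlated at 0.5 the test called 540, 44 and 987 genes in that order, against 39, 5 and 197, and after adjustment again 0 of the 3 genes. The lowest of their adjusted p-values was then 0.207, for BRD2 in SAHA minus compound 1. Unadjusted p-values and intervals are not given at that correlation, so whether any would pass 0.05 or leave out 0 is not shown. With errors taken as independent, the intervals are wide enough to hold differences of up to 1.15 on the log2 scale. The compounds are thus not shown to act alike on these genes.

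**Figure D3:**
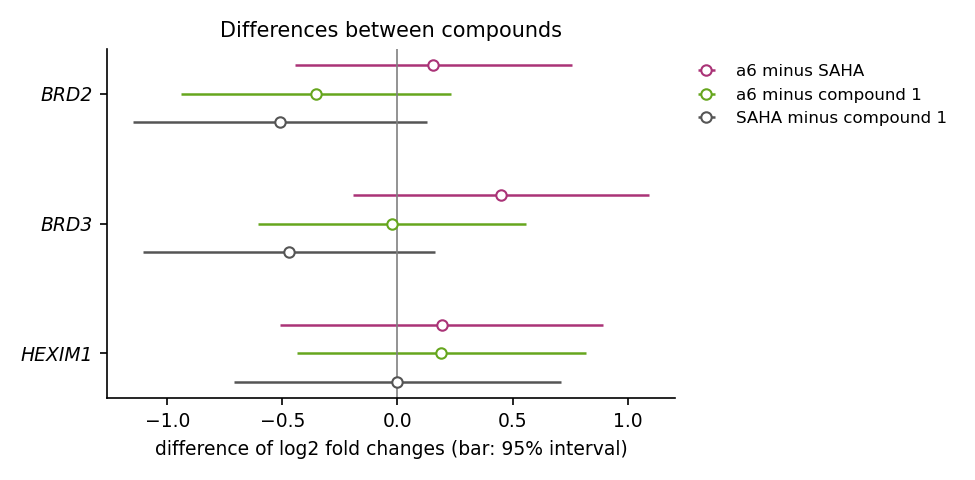
Differences between compounds in the log2 fold change of BRD2, BRD3 and HEXIM1 (points) with 95% intervals (bars), for a6 minus SAHA, a6 minus compound 1 and SAHA minus compound 1. With errors taken as independent, all 9 intervals include 0, and the widest displacement from 0 is -0.51, for BRD2 in SAHA minus compound 1.

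HEXIM1 acts in the 7SK particle, and of a list of 10 genes of that particle, of P-TEFb and of proteins close to them, HEXIM1 included, 9 were listed in each comparison. With SAHA 0 of the 9 rose and 1 fell, with a median log2 fold change of -0.30, beside a median of -0.01 over all genes, of which 4.53% rose and 3.02% fell. Among genes whose mean normalized count reached 50, as it did for all 9, the median was -0.06. With the trend of fold change on transcript GC content removed, 69.98% of the called genes were higher with SAHA, against 59.97% as deposited. The gene that fell was MEPCE (chromosome 7, 100428790 to 100434126), which encodes the enzyme that caps and stabilises 7SK RNA. MEPCE averaged 361 normalized counts with SAHA and 726 in Ctrl, for which the authors' deposited table has a log2 fold change of -1.01 (SE 0.29, DESeq2 adjusted p = 0.00972). With that GC trend removed, its value was -0.79 and the call was lost (adjusted p = 0.0714). By the authors' deposited tables MEPCE was at 0.15 (SE 0.29) with compound 1 and at -0.38 (SE 0.25) with a6, neither of which passed. The difference for SAHA minus compound 1 was -1.16 with a standard error of 0.40 (adjusted p = 0.199), and with the errors of the shared Ctrl libraries taken as correlated at 0.5 the adjusted p was 0.00261.

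The remaining particle genes showed no call. CDK9 averaged 1722 normalized counts with SAHA and 1894 in Ctrl, 1823 with compound 1 and 1888 in Ctrl, and 1917 with a6 and 1850 in Ctrl. Its log2 fold changes in the authors' deposited tables were -0.14 with SAHA, -0.05 with compound 1 and 0.05 with a6, with standard errors of 0.29, 0.24 and 0.22. The T-type cyclin genes, whose proteins activate CDK9, were lower in mean with SAHA and a6. In the authors' deposited tables CCNT1 was at -0.30 with SAHA, 0.10 with compound 1 and -0.19 with a6, and CCNT2 at -0.44, 0.08 and -0.30. LARP7, which protects the end of 7SK RNA, was at -0.39, 0.31 and -0.49 in the same order in the authors' deposited tables. HEXIM2, which can replace HEXIM1 in the particle, was at 0.20 with SAHA, -0.11 with compound 1 and -0.02 with a6 in the authors' deposited tables, and the last of these turned positive when fold changes were centred on their median. With compound 1 and with a6, 0 of the 9 genes rose and 0 fell, with medians of -0.01 and -0.09, where all genes had medians of 0.01 and -0.03. Over all genes 0.0% were called with compound 1, and 0.243% rose and 0.341% fell with a6.

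**Figure D4:**
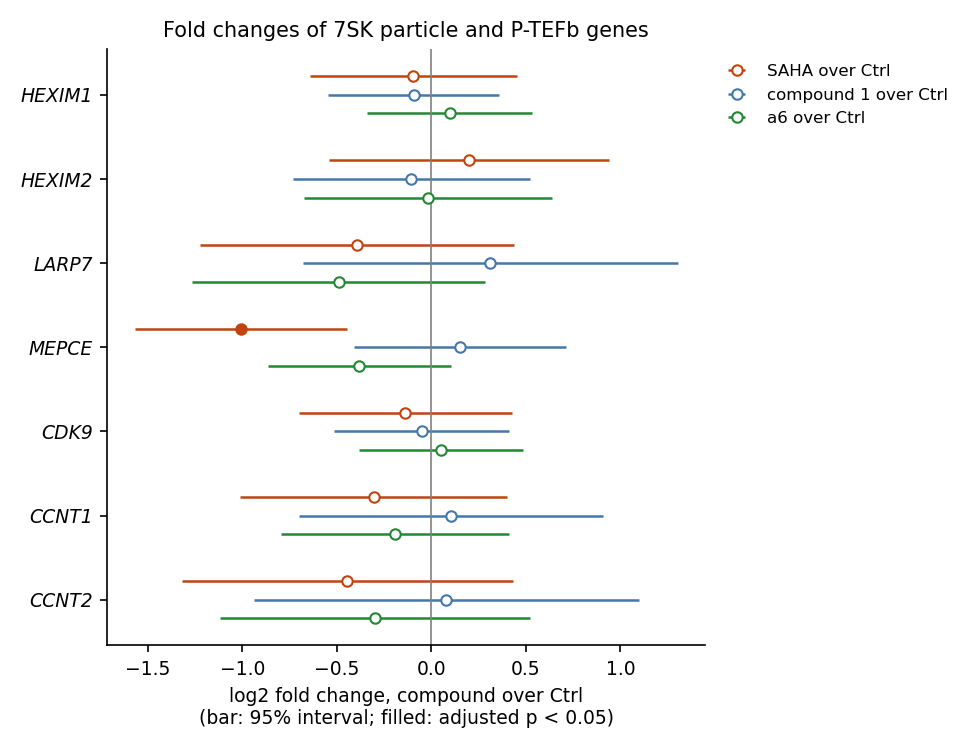
Log2 fold changes of 7SK particle and P-TEFb genes with SAHA, compound 1 and a6 over Ctrl (points) with 95% intervals (bars); filled points have an adjusted p under 0.05. The single filled point is MEPCE with SAHA at -1.01, and the HEXIM1 and CDK9 intervals are centred near 0.

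Downstream of P-TEFb, a list of 18 super elongation complex and pausing genes, such as ELL2, AFF4 and the NELF subunits, had 17 listed with SAHA, 18 with compound 1 and 15 with a6. With each compound 0 rose and 0 fell. Over all genes 4.53% rose and 3.02% fell with SAHA, 0.0% were called with compound 1, and 0.243% rose and 0.341% fell with a6, so 0 calls in a list of this size is near the share over all genes. The medians of the list by the authors' deposited tables were -0.10 with SAHA, 0.10 with compound 1 and 0.06 with a6, beside -0.01, 0.01 and -0.03 over all genes. A list of 13 genes for partners of BET proteins, among them JMJD6, NSD3, CHD4 and Mediator subunits, also had 0 that rose and 0 that fell with each compound, beside the same shares over all genes. When genes with a mean count under 10 were left out, 1 of the 13 was called with SAHA. With SAHA all 13 were below 0, with a median of -0.24, while 50.7% of all genes were below 0. Among genes whose mean normalized count reached 50, as it did for all 13, 55.8% were below 0 and the median was -0.06. With compound 1 the same 13 genes had 4 below 0 and with a6 7 below 0. The members of a complex share libraries and are not independent of each other.

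BRD2 and BRD3 belong to the wider family of bromodomain genes. Of 39 other bromodomain genes 36 were listed with SAHA, of which 2 rose and 4 fell, where 4.53% of all genes rose and 3.02% fell. The median log2 fold change of the 36 was -0.43 and 31 of them were below 0. Among the 12123 genes whose mean normalized count reached 50, the median was -0.06 and 55.8% were below 0. BRD2 at -0.44 and BRD3 at -0.39 lay near the median of their family.

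The 4 bromodomain genes that fell with SAHA encode parts of complexes that write or remodel chromatin. BRPF3, a scaffold of histone acetyltransferase complexes, averaged 683 normalized counts with SAHA and 1476 in Ctrl. By the authors' deposited table its log2 fold change was -1.11 (SE 0.27, DESeq2 adjusted p = 0.00156). BRD1, a related scaffold, averaged 272 with SAHA and 515 in Ctrl, which is -0.92 by the authors' deposited table (SE 0.27, DESeq2 adjusted p = 0.0122). The others, named after their values were seen, were BRD9, a subunit of a SWI/SNF complex, at -0.84 (SE 0.25), and BRD8, a subunit of the TIP60 complex, at -0.98 (SE 0.29), both by the authors' deposited table. At an adjusted p under 0.01 or with a 2-fold limit, BRPF3 kept its call and the other 3 lost it. None of the 4 passed with the other compounds. By the authors' deposited tables BRPF3 was at -0.20 with a6 and 0.10 with compound 1, BRD1 at -0.30 and -0.02, BRD9 at -0.09 and -0.08, and BRD8 at -0.20 and -0.05. In the z test between compounds none of the 4 passed for any pair, and BRPF3 in SAHA minus compound 1 had an adjusted p = 0.157. With errors correlated at 0.5 all 4 passed for SAHA minus compound 1, and BRD9 and BRPF3 passed for a6 minus SAHA.

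SP140 and SP110, nuclear body proteins best known from immune cells, moved the other way. SP140 averaged 126 normalized counts with SAHA and 41.6 in Ctrl, and 120 with a6 and 40.7 in Ctrl, but 29.5 with compound 1 and 41.5 in Ctrl. On the log2 scale the authors' deposited tables have 1.60 for SAHA (SE 0.36, DESeq2 adjusted p = 0.000498) and 1.55 for a6 (SE 0.39, DESeq2 adjusted p = 0.0174). At an adjusted p under 0.01 the SAHA call was kept and the a6 call was lost. With compound 1 the authors' deposited table has -0.49 (SE 0.49), which did not pass. SP140 differed by -0.05 for a6 minus SAHA (95% interval -1.09 to 0.99) and by 2.04 with a standard error of 0.63 for a6 minus compound 1 (adjusted p = 1.00, and 0.00526 with errors correlated at 0.5). For SAHA minus compound 1 it differed by 2.09 with a standard error of 0.61, and this call depended on the processing: the adjusted p was 0.0554, 0.0491 with a mean count of at least 10, and 0.000193 with errors correlated at 0.5. SP110 averaged 106 with SAHA and 46.6 in Ctrl, a log2 fold change of 1.19 by the authors' deposited table (SE 0.38, DESeq2 adjusted p = 0.0316). With the trend on GC content removed SP110 was at 1.11 and its call was lost (adjusted p = 0.0553). SP140 was the 1 of 36 listed bromodomain genes that rose with a6, and 0 fell, with 30 of 36 below 0 and a median of -0.19, beside 54.1% of all genes below 0 and a median of -0.03. With a6, 0.243% of all genes rose and 0.341% fell. With compound 1, 37 were listed, 0 rose and 0 fell, and the median was 0.01.

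**Figure D5:**
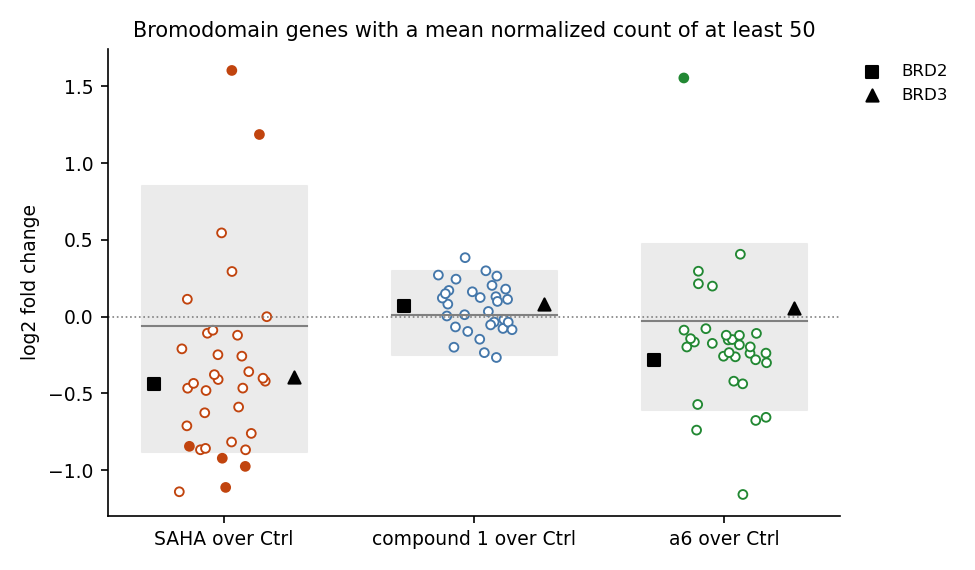
Log2 fold changes of bromodomain genes whose mean normalized count reached 50 (circles, filled where the adjusted p is under 0.05), with BRD2 (squares) and BRD3 (triangles); the grey band spans the 5th to the 95th percentile and the grey line the median of all genes with such a count. With SAHA most circles lie below the line and BRD2 and BRD3 lie among them at -0.44 and -0.39, and the filled circles above the band are SP140 at 1.60 and SP110 at 1.19 with SAHA and SP140 at 1.55 with a6.

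Markers of immune and other cells were looked at beside these values, since SP140 and SP110 are known from immune cells. Of 10 haematopoietic markers 3 were listed with SAHA, with a summed mean count of 161 with SAHA and 110 in Ctrl, and the defining genes PTPRC and CD3E were not listed in any of the 3 tables. CD14 rose with SAHA by 1.81 on the log2 scale (SE 0.42) according to the authors' deposited table, while the other listed members did not pass. With a6, 2 of the 10 were listed, with a summed mean count of 50.1 with a6 and 100.01 in Ctrl. Of 6 endothelial markers 3 were listed with SAHA and 2 rose, VWF and KDR, where 4.53% of all genes rose with SAHA, with a summed count of 154 with SAHA and 46.9 in Ctrl. Of 7 fibroblast markers 3 were listed with SAHA and 1 rose, LUM, which averaged 49.3 with SAHA and 0.378 in Ctrl. With a6 1 of 2 listed fibroblast markers fell, where 0.341% of all genes fell. It was PI16, at -2.18 (SE 0.45) by the authors' deposited table. The part of these markers in the values of the bromodomain genes was not tested.

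A list of 14 genes known to move when BET proteins are inhibited, HEXIM1 among them, gave 12 listed with SAHA, of which 2 rose and 2 fell, where 4.53% of all genes rose and 3.02% fell. The list mixes genes that BET inhibitors raise, as HEXIM1, with genes that they lower. Whether each call went in the direction seen with BET inhibitors was not tested. With the GC trend removed 2 genes of the list were called, and 1196 over all genes. Genes without a GC value, H2BC21 among them, were left out of that setting. SERPINI1, a neuronal serpin, averaged 65.4 normalized counts with SAHA and 3.59 in Ctrl, which the authors' deposited table gives as 4.18 on the log2 scale (SE 0.66, DESeq2 adjusted p = 5.95e-08). CCND2, encoding cyclin D2, averaged 22.2 with SAHA and 0.376 in Ctrl, a Ctrl level too low for a fold (DESeq2 adjusted p = 0.00113, authors' deposited table). The histone gene H2BC21 averaged 5.87 with SAHA and 28.8 in Ctrl, or -2.29 on the log2 scale by the authors' deposited table (SE 0.65, DESeq2 adjusted p = 0.00996). FOSL1, an AP-1 subunit, averaged 4622 with SAHA and 8647 in Ctrl, or -0.90 on that scale by the authors' deposited table (SE 0.28, DESeq2 adjusted p = 0.0244). Without the trend on GC content FOSL1 was at -0.72 and its call was lost (adjusted p = 0.114). The median of the 12 was -0.03, close to that of all genes.

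With compound 1, 13 of the 14 were listed, 0 rose and 0 fell, where 0.0% of all genes were called. With a6, 10 were listed, 0 rose and 0 fell, where 0.243% of all genes rose and 0.341% fell. With a6, SERPINI1 averaged 18.3 with a6 and 3.58 in Ctrl, and H2BC21 averaged 6.97 with a6 and 28.2 in Ctrl. Their adjusted p-values in the authors' deposited table were 0.402 and 0.155, so neither passed. Under the authors' list rule, an unadjusted p under 0.05 with a 2-fold change, these 2 genes of the list were called with a6. MYC, which BET inhibitors lower in many cells and which is named here after its values were seen, was at 0.27 with SAHA, 0.18 with compound 1 and -0.33 with a6 in the authors' deposited tables and did not pass.

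Over the 3 log2 fold changes, the genes nearest to each of the 3 were taken from 10141 protein-coding genes whose mean normalized count reached 50 in every table. Nearest to BRD2 was CCNT2, at a Euclidean distance of 0.017 on the log2 scale, followed by UGDH at 0.027 and EPB41 at 0.031. For BRD3 the nearest were TBL2 at 0.015, PQBP1 at 0.025 and NUBP1 at 0.025. For HEXIM1 they were AP1M1 at 0.023, PPP1R37 at 0.023 and COMMD1 at 0.024. With distances in units of standard errors, 2 of 3 neighbours stayed for BRD2, CCNT2 still the nearest, and 3 of 3 for BRD3 and for HEXIM1. That scale brings genes with large standard errors nearer. Those of CCNT2 were 0.45 with SAHA, 0.52 with compound 1 and 0.42 with a6, so its rank there is no separate check. The likeness covers 3 comparisons that share their Ctrl libraries, and these distances are far smaller than the standard errors of the fold changes, 0.20 or more for the 3 genes.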

How the data were processed

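Trimming with cutadapt, testing with DESeq2 and the build GRCh38 (hg38) are given per the submitters' processing notes; no aligner, counter or version is named in the sources used here. Per the file headers, the authors' deposited tables give for each gene a mean normalized count over 6 libraries (a signal), a log2 fold change of compound over Ctrl and the error of that change, the Wald score, and p-values before and after adjustment. Values per library were taken from 0 columns.

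The authors' DESeq2 test at an adjusted p under 0.05 was used as deposited. Recomputing the Wald score and the Benjamini-Hochberg adjustment within each table gave the deposited values. Group levels follow from mean count and fold change, with 3 libraries in either group. Intervals are the fold change with its standard error at 95%, by the normal distribution. Differences between compounds used a two-sided z test, with errors added in quadrature and p-values adjusted (Benjamini-Hochberg) over all shared genes. It was tested on simulated data. The change needed for a call used the largest p called in that table. Tools were Python 3.11.15, scipy 1.17.1 and statsmodels 0.14.6. Exon lengths and GC content came from GENCODE 29, promoter windows from RefSeq.

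As alternatives, calls were made with a 2-fold limit, at an adjusted p under 0.01, with readjustment, a mean count of at least 10, median centring, the authors' list rule (unadjusted p under 0.05 and 2-fold), removal of a lowess trend on GC content (share 0.3) and, for differences, an error correlation of 0.5. The lists and the rule for named genes (the 3 genes, 6 particle genes, up to 2 rising and 2 falling list members per comparison, and nearest genes) were set, and the 3 genes chosen, with earlier results of these data known. The other BET genes are not reported here.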

Additional observations from a re-analysis of the deposited data

Results flagged for a closer look

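CD14, the monocyte marker given beside the bromodomain genes, differed between compounds: its log2 fold change was 1.81 with SAHA and -0.58 with compound 1 in the authors' deposited tables, a difference of 2.39 with a standard error of 0.62 (two-sided z test over all genes, adjusted p = 0.0169). At an adjusted p under 0.01 that call was lost. With a6 CD14 was at -0.58 as well, and a6 minus SAHA was -2.40 with a standard error of 0.67. By the z test its adjusted p was 0.0856, and 0.000149 with errors correlated at 0.5. CD14 averaged 99.3 normalized counts with SAHA but only 18.9 with compound 1, 18.5 with a6 and 28.2 in Ctrl of the SAHA comparison. BRD2, BRD3 and HEXIM1 passed for none of the 3 pairs of compounds.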

How the results depend on the processing

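Over 99 values of BRD2, BRD3 and HEXIM1 under the alternatives, 97 kept their direction and their side of the threshold, and 2 reversed, both under median centring and both near 0: BRD3 in a6 minus compound 1 was at 0.020, and HEXIM1 in SAHA minus compound 1 at 0.017. Much of that agreement was fixed in advance. The 2-fold limit and the adjusted p under 0.01 can only remove calls, and readjustment gave the deposited values. The authors' list rule needs an unadjusted p under 0.05, which none of the 3 genes had. Only median centring and removal of the GC trend altered a fold change of these genes. The lowest adjusted p of BRD2 with SAHA under any alternative was 0.293, and with errors correlated at 0.5 the lowest for SAHA minus compound 1 was 0.207. Other values that reversed were CCNT1 at -0.027 and CCNT2 at -0.059 with compound 1 and AC138150.1 at 0.036 with a6, all with the GC trend removed, HEXIM2 with a6 at 0.015 centred and 0.024 with the GC trend removed, and, centred in a6 minus compound 1, CD14 at 0.037 and BRD9 at 0.032.

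Counts over all genes moved more. An adjusted p under 0.01 called 820 genes with SAHA, 36 with a6, 16 for a6 minus SAHA, 3 for a6 minus compound 1 and 87 for SAHA minus compound 1. The authors' list rule called 43 with compound 1 and 398 with a6. An error correlation of 0.5 called 540, 44 and 987 for the same 3 differences. Removing the GC trend left 837 higher and 359 lower genes with SAHA, 69.98% higher, against 59.97% as deposited. No paired analysis was possible because the tables hold no values per library, and leaving out each replicate was not run for the same reason; depth per library is unknown here.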
